A study of Mus musculus with 8 samples.

Results

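The genes described here are the D-type cyclins Ccnd1, Ccnd2 and Ccnd3, their partner kinases Cdk4 and Cdk6, the inhibitors Cdkn1a, Cdkn1b and Cdkn2c, the homeobox factor Meis1 and the retinoblastoma gene Rb1. They were chosen by name as regulators of the step from G1 into S phase, with earlier results of these data known. Each symbol matched 1 mouse Ensembl ID in the deposited count table. The 10 genes were thus taken from 54752 IDs, and all 10 were among the 14665 genes that passed the filter on low counts.

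Messenger RNA was sequenced from mouse heart muscle cells to ask how Carm1, which transfers methyl groups to arginines of histones and other proteins, affects the heart's maturation in the weeks after birth. All mice, controls included, had the genotype Carm1fl/fl, in which part of the gene is flanked by sites for Cre recombinase. The 8 libraries form 4 groups of 2: Carm1 KO (injected with AAV-CRE) and control (injected with AAV-GFP) at 1w, and the same pair of treatments at 3w. The adeno-associated virus was given, per the labels, at postnatal day 1 (replicate 1) or 2 (replicate 2) in the 1w groups and at day 3 (replicate 1) or 4 (replicate 2) in the 3w groups. The days climb in step with the replicate numbers and the ages, so these labels may be in error; taken as written, injection day and age cannot be told apart in the comparisons of 3w with 1w. The hearts were mosaic, with infected and uninfected cardiomyocytes side by side, and were taken apart on a Langendorff perfusion system. The labels name neither a promoter that drives Cre nor a sorting step. Since Cre was never given to mice lacking the floxed alleles, loss of Carm1 and any action of the Cre enzyme cannot be told apart. The labels do not say outright that the libraries of a group are different animals, so the p-values reflect only how far these libraries spread, part or all of which may be technical.

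Total counts per library lay between 20818285 and 53671626, and 40.7 to 47.8% of them came from mitochondrially encoded genes. Carm1 itself stood at 22.2 and 22.4 CPM (gene counts scaled to the size of the library) in KO at 1w, against 40.5 and 39.1 CPM in control, and at 17.3 and 17.8 CPM in KO at 3w, against 39.9 and 39.3 CPM in control. The gene count also takes in exons outside the deleted part and uninfected cells. Of 10 cardiomyocyte markers 8 were abundant, and Actc1 and Pln were listed at 0 in every library. Of these 8, 1 was higher and 6 lower in KO at 1w, and 0 were higher and 7 lower at 3w. The cardiomyocyte markers summed to 38100 to 38500 CPM in KO against 40100 to 40600 CPM in control at 1w. At 3w the sums were 67700 to 68100 CPM in KO against 82800 to 87400 CPM in control. Summed counts of 4 Y-linked genes were 5025 and 4282 in the KO libraries at 1w, compared with 1 and 0 in control, but 3 and 2 in the KO libraries at 3w, compared with 6765 and 4814 in control. At each age, a KO effect and a difference that follows the Y-linked transcripts therefore cannot be told apart. Markers of other heart cells also differed between the groups. Of 10 fibroblast markers 9 were tested, with Tcf21 listed at 0, and all 9 were higher in KO at both ages, with a summed level of 2620 to 2650 CPM in KO against 1420 to 1440 CPM in control at 1w and of 681 to 691 CPM in KO against 314 to 316 CPM in control at 3w. Of 10 smooth muscle and pericyte markers, 6 were higher and 3 lower in KO at 1w and all 10 were higher at 3w, with sums of 2310 to 2330 CPM in KO against 1780 to 1850 CPM in control at 1w and of 2030 to 2040 CPM in KO against 1120 to 1160 CPM in control at 3w. The 7 atrial markers summed to 609 to 616 CPM in KO against 64.5 to 67.8 CPM in control at 1w, where all 7 were higher, and to 600 to 613 CPM in KO against 173 to 178 CPM in control at 3w, where 3 were higher and 4 lower. In a bulk library, fewer cells of a type and less RNA per cell cannot be told apart.

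D-type cyclins are made when growth signals reach a cell. They bind CDK4 or CDK6, and the active kinases phosphorylate the retinoblastoma protein, which then releases E2F transcription factors to switch on the genes of DNA replication. CDKN2C (p18) blocks CDK4 and CDK6 themselves, while CDKN1A (p21) and CDKN1B (p27) bind complexes of cyclins and kinases, most firmly those of CDK2. Mouse cardiomyocytes leave the cell cycle soon after birth, and in mice the TALE homeodomain factor MEIS1 is known as a factor required for that arrest.

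Expressed per kilobase of exon, so that genes can be compared, the kinase Cdk4 was the most abundant of the 10 transcripts in KO at 1w, with a mean of 16.8 CPM per kb, followed by Ccnd2 (14.9) and Cdkn1a (13.1). In control at 1w the order of the leading genes was Ccnd2 (24.4 CPM per kb), Cdk4 (18.4) and Cdkn1a (11.9). By 3w the p21 gene Cdkn1a led in both, with 32.7 CPM per kb in KO and 28.8 in control. The gene in the next place was Ccnd2 in KO (14.2 CPM per kb) and the p27 gene Cdkn1b in control (8.82), where Ccnd2 (8.35) and Cdk4 (8.14) followed closely. At the low end stood Rb1 at 1w, with 1.18 CPM per kb in KO and 1.05 in control, and Cdk6 at 3w, with 1.34 in KO and 0.783 in control. Within a group, some neighbours lay within the spread of their libraries. In KO at 1w these were Cdkn2c and Ccnd3 (5.71 and 5.65). In control they were Ccnd1, Cdkn1b and Ccnd3 at 1w (6.03, 6.01 and 5.66) and Ccnd2 and Cdk4 at 3w (8.35 and 8.14).

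**Figure D1:**
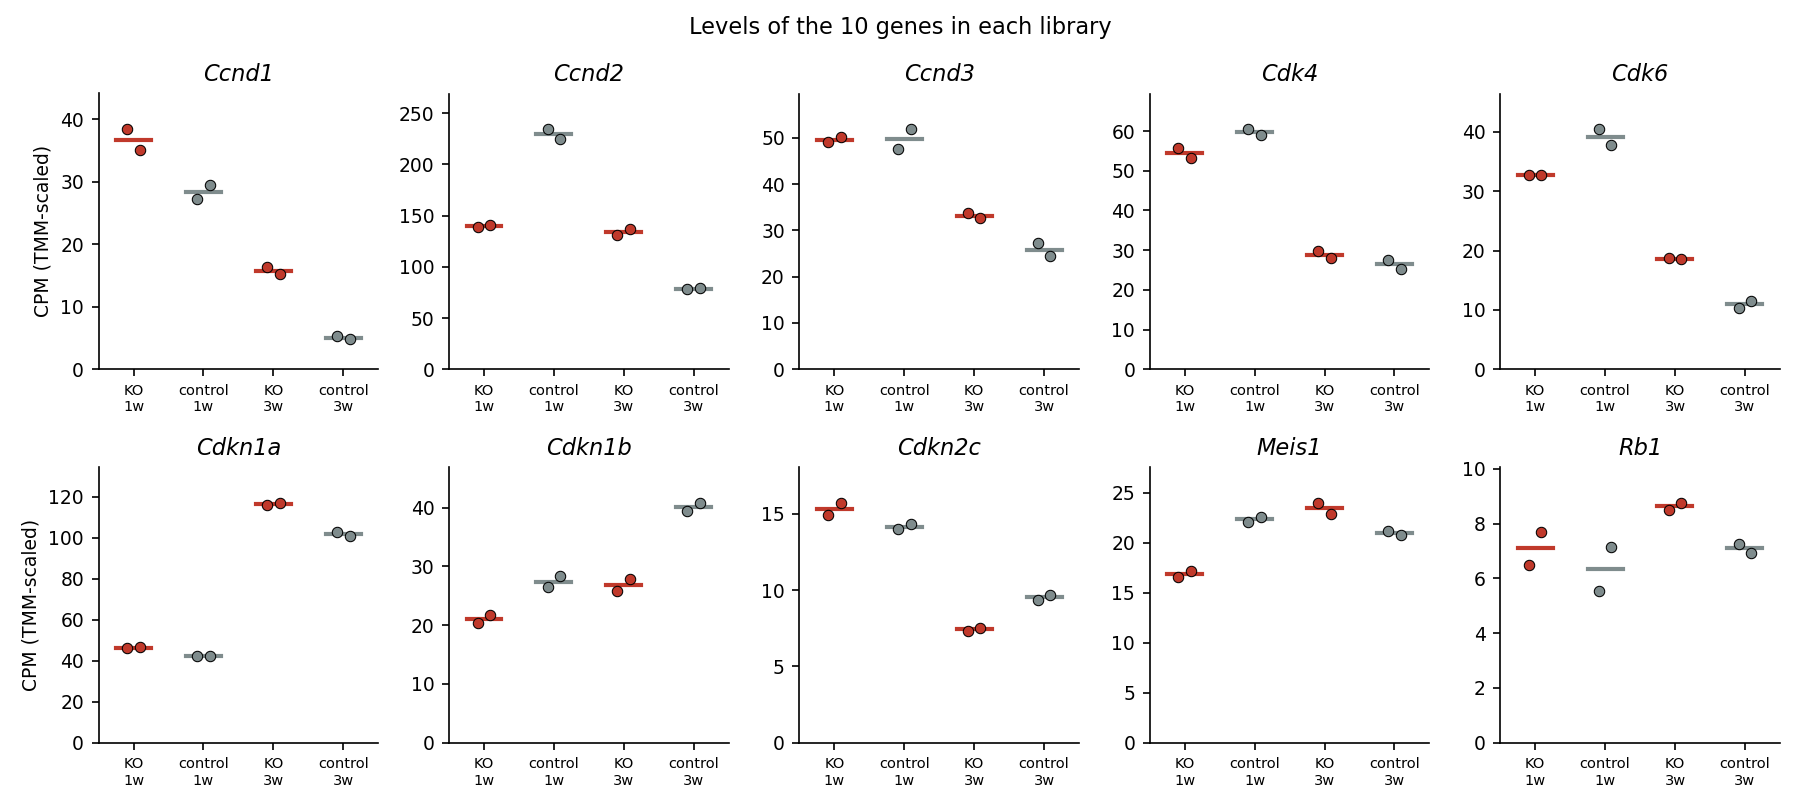
TMM-scaled CPM (y axis, linear from 0, with its own range in each panel) of the 10 genes, with KO left of control at 1w and at 3w; each point is 1 library and each line a group mean. Ccnd1 has its lowest values in control at 3w, at 5.27 and 4.84 CPM, while Cdkn1a stands above 100 CPM in all 4 libraries at 3w.

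At 1w, KO hearts had less Ccnd2, Cdk4, Cdk6, Cdkn1b and Meis1 and more Ccnd1 and Cdkn1a than control hearts, and the changes were modest. Of the 10 genes, 2 were called higher and 5 lower at an adjusted p under 0.05 (edgeR's quasi-likelihood test, Benjamini-Hochberg over all genes), and 3 were not called. Over all genes tested, 43.0% were called in this comparison, 23.0% higher and 20.0% lower. The median log2 fold change of the 10 genes was -0.07, beside 0.02 for all genes.

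At 3w, KO hearts had more of all 3 D cyclins and of Cdk6, with Ccnd1 at 3.09 times, Cdk6 at 1.72 times and Ccnd2 at 1.70 times the control level. Cdkn1a, Meis1 and Rb1 were also higher, and the inhibitors Cdkn1b and Cdkn2c were lower. This made 7 genes called higher and 2 called lower, with 1 not called. The background at 3w was 49.2% of all genes called, of which 24.4% higher and 24.8% lower. The median log2 fold change of the 10 genes was 0.23, beside 0.01 for all genes.

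**Figure D2:**
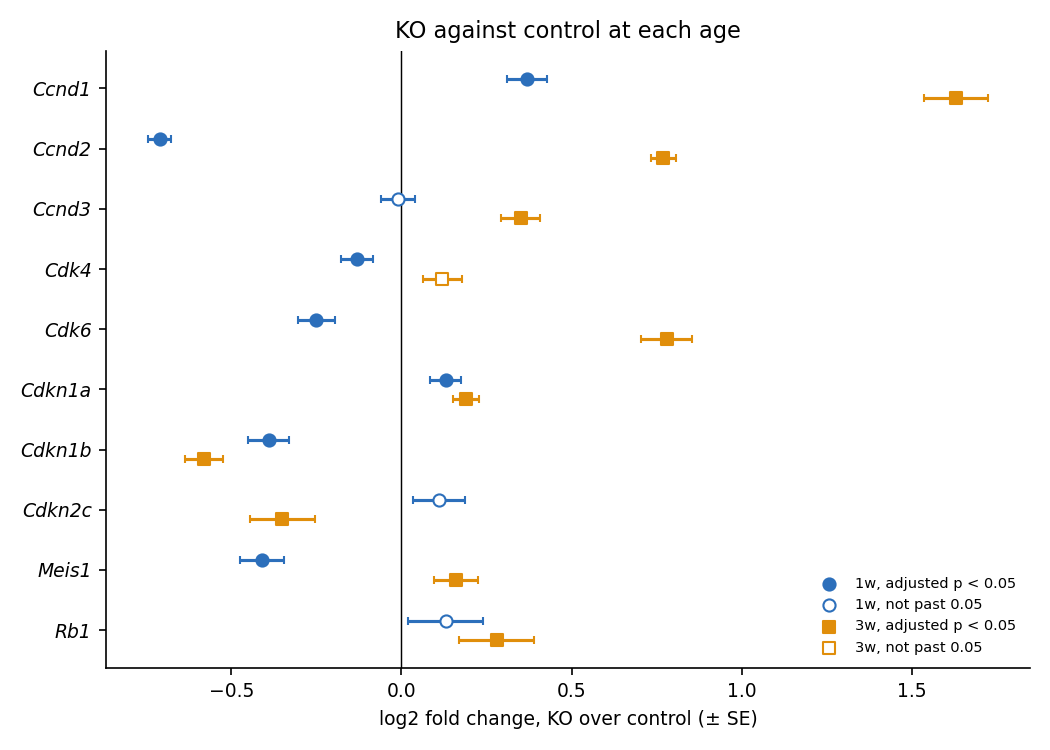
Log2 fold change of KO over control (x axis) for each of the 10 genes at 1w (circles) and at 3w (squares), with bars of ± 1 SE; filled points passed an adjusted p of 0.05. Ccnd1 has the largest value at 3w, 1.63, and Ccnd2 lies at -0.71 at 1w and at 0.77 at 3w.

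Among the D cyclins, Ccnd1 (ENSMUSG00000070348, GRCm38/mm10 chromosome 7, 144929931 to 144939925, minus strand) is the cyclin best known as a target of growth factor signalling. It was measured at 38.4 and 35.1 CPM in KO at 1w, against 27.2 and 29.5 CPM in control. At 3w its level was 16.3 and 15.2 CPM in KO, against 5.27 and 4.84 CPM in control. The groups did not overlap at either age, and KO was the higher one each time. In log2 units, with the SE, KO exceeded control by 0.37 ± 0.059 at 1w (adjusted p = 4.4e-07) and by 1.63 ± 0.093 at 3w (adjusted p = 2.7e-23). Its direction was thus the same at both ages, while the Y-linked transcripts ran in opposite directions. Even so, at each age the KO effect and a difference that follows those transcripts cannot be told apart. The level of Ccnd1 ran alongside that of the fibroblast markers given above. Those markers were also higher in KO than in control at each age, and higher at 1w than at 3w in KO and in control. Endothelial markers summed to 1390 CPM in KO at 1w against 1150 CPM in control, and to between 495 and 518 CPM in KO at 3w against 455 to 462 CPM in control. The part of these cells in the Ccnd1 difference was not tested. Of the exon length of Ccnd1, 1100 bases (23.4%) lie opposite exons of LTO1 on the plus strand, and the strand setting of the counting is not given in the sources used here. LTO1 had 494 counts over the KO libraries at 3w against 577 in control, and its log2 fold change was 0.07 ± 0.10 (adjusted p = 0.58).

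Ccnd2 (ENSMUSG00000000184, chromosome 6, 127125162 to 127152193, minus strand) was the most abundant D cyclin in all 4 groups. At 1w it stood at 139 and 141 CPM in KO, against 234 and 225 CPM in control. At 3w the order turned round, with 131 and 137 CPM in KO against 77.9 and 79.3 CPM in control. The libraries of the groups were well apart at both ages, KO lying below control at 1w and above it at 3w. The log2 fold change was -0.71 ± 0.034 at 1w (adjusted p = 8.7e-27), and at 3w it was 0.77 ± 0.037 (adjusted p = 6.2e-27). Seen by age, Ccnd2 fell steeply in control and stood at nearly one level in the 4 KO libraries. The groups with Y-linked transcripts, KO at 1w and control at 3w, were the lower ones at both ages, so for Ccnd2 the KO effect and the Y-linked difference cannot be told apart. The KO effect on the smooth muscle and pericyte markers was also more positive at 3w than at 1w. In that difference 9 of 10 were called higher (median 1.06). At 1w itself, 6 of these markers were higher and 3 lower in KO, while Ccnd2 and Cdk6 were lower. The part of such cells in the Ccnd2 and Cdk6 values was not tested.

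The third D cyclin, Ccnd3 (ENSMUSG00000034165, chromosome 17, 47505051 to 47599691, plus strand), had 49.1 and 50.1 CPM in KO at 1w, against 47.5 and 51.8 CPM in control. These 1w groups overlapped, and the log2 difference of -0.01 ± 0.050 was not called (adjusted p = 0.91). At 3w it was measured at 33.7 and 32.7 CPM in KO, against 27.2 and 24.4 CPM in control. KO lay above control without overlap, with a log2 fold change of 0.35 ± 0.058 (adjusted p = 6.4e-07). Bysl, a ribosome biogenesis gene that shares 361 exonic bases with Ccnd3 on the other strand (4.11% of its exon length), was higher in KO at 3w by a similar 0.34 ± 0.064 (adjusted p = 8.7e-06), and reads of the overlap cannot be assigned without the strand setting.

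Taken per kilobase, the 3 D cyclins summed to 28.3 ± 0.24 CPM per kb in KO at 1w and 36.1 ± 0.0013 in control (SD, n = 2 each). At 3w the sum was 21.3 ± 0.21 in KO and 12.4 ± 0.18 in control. The sum was therefore lower in KO at 1w and higher in KO at 3w, by more than the spread of the libraries each time; as a sum over chosen genes it was given no test. The make-up of the sum also differed. Ccnd1 made up 27.5 ± 1.5% of it in KO at 1w and 16.7 ± 0.96% in control, and 15.7 ± 0.94% in KO at 3w and 8.68 ± 0.39% in control. Ccnd2 gave 52.5 ± 1.1% in KO at 1w, against 67.6 ± 1.9% in control, but 66.6 ± 1.5% in KO at 3w, against 67.5 ± 1.9% in control, which lay within the spread. The share of Ccnd3 was 19.9 ± 0.44% in KO at 1w and 15.7 ± 0.98% in control, and 17.7 ± 0.56% in KO at 3w and 23.8 ± 1.5% in control.

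**Figure D3:**
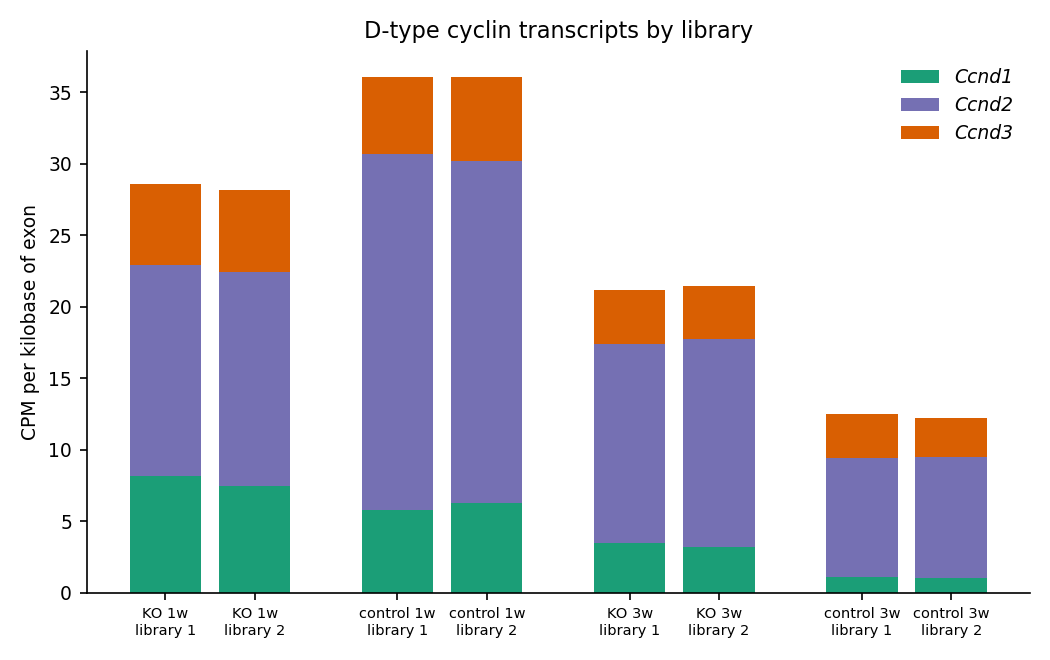
Stacked bars of Ccnd1, Ccnd2 and Ccnd3 in CPM per kb of exon (y axis from 0), 1 bar for each library, with KO left of control at each age. The stacks are lower in KO than in control at 1w (means 28.3 against 36.1) and higher in KO at 3w (means 21.3 against 12.4).

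Of the partner kinases, Cdk6 (ENSMUSG00000040274, chromosome 5, 3341485 to 3531008, plus strand) shared with Ccnd2 the direction of the KO difference at each age. Unlike Ccnd2, it fell with age in KO as well as in control. It stood at 32.7 and 32.8 CPM in KO at 1w, against 40.4 and 37.8 CPM in control, and at 18.8 and 18.5 CPM in KO at 3w, against 10.4 and 11.5 CPM in control. KO was below control at 1w and above it at 3w, with no overlap. The log2 fold change was -0.25 ± 0.054 at 1w (adjusted p = 0.00013), and at 3w it was 0.78 ± 0.075 (adjusted p = 8.6e-14), and as for Ccnd2 the lower group at each age was the one with Y-linked transcripts.

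Cdk4 (ENSMUSG00000006728, chromosome 10, 127063534 to 127067920, plus strand) differed little between KO and control. It had 55.8 and 53.3 CPM in KO at 1w, against 60.4 and 59.1 CPM in control, and 29.7 and 28.0 CPM in KO at 3w, against 27.6 and 25.3 CPM in control. The 1w groups were close but apart, and the log2 fold change of -0.13 ± 0.047 was called (adjusted p = 0.020), though not with DESeq2 (0.12), with no low-count filter (0.082), without control replicate 1 at 1w (0.087) or without KO replicate 2 at 1w (0.23). At 3w the value of 0.12 ± 0.058 was not called (adjusted p = 0.086), but was with upper-quartile scaling (0.011), with a minimum count of 50 (0.048) or without control replicate 1 at 3w (0.028). Tspan31, on the other strand, covers 641 bases (19.7%) of the exons of Cdk4. Its own values ran the other way, at -0.18 ± 0.073 in KO at 3w (adjusted p = 0.031).

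The windows of 250 bases upstream of the RefSeq starts (GRCm38.p6) of both kinases are printed because Cdk4 and Cdk6 fell together with age in KO and in control. Both lie on the plus strand, Cdk4 at chr10:127063285-127063534 and Cdk6 at chr5:3343643-3343892, and are written 5′ to 3′. Capitals mark the E-box CACGTG, the core bound by MYC and its relatives, which reads the same on both strands.
Cdk4: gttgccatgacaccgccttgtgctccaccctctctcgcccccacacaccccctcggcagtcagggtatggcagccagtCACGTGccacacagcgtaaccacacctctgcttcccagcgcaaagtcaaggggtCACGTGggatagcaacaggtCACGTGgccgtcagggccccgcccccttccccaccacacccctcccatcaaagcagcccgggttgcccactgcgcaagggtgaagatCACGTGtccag
Cdk6: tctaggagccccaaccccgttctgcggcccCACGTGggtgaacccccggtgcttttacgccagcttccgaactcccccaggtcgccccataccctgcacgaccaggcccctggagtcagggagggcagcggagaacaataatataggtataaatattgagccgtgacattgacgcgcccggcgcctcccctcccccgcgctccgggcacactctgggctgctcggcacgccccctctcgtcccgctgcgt
The Cdk4 window held 4 matches and the Cdk6 window 1, and 6.02% of the 32851 RefSeq windows of this length held at least 1. Ccnd3 and Cdkn2c also fell with age in KO and in control, and none of their windows held an E-box match. Any link between these letters and the fall with age was not tested. The E2F letters TTTCCCGC or TTTGGCGC, searched on both strands, were in 1.3% of all windows and in none of the 10 windows of the 7 genes that RefSeq's table covered. Ccnd1, Ccnd2 and Rb1 had no entry there.

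Among the inhibitors, Cdkn1a (ENSMUSG00000023067, chromosome 17, 29090976 to 29100727, plus strand), the p21 gene and a standard target of p53, was slightly higher in KO. At 1w it stood at 46.4 and 46.5 CPM in KO, against 42.2 and 42.4 CPM in control, and at 3w at 116 and 117 CPM in KO, against 103 and 101 CPM in control. The libraries of a group lay very close together, and KO was above control without overlap at both ages. The log2 fold change was 0.13 ± 0.045 at 1w (adjusted p = 0.012), and at 3w it was 0.19 ± 0.038 (adjusted p = 4e-05). The 1w call was lost with DESeq2 (adjusted p = 0.088), without control replicate 2 (0.052) and without KO replicate 1 (0.065) or 2 (0.060) at 1w.

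The upstream window of Cdkn1a is printed because this gene had the largest rise with age of the 10. It lies at chr17:29090729-29090978 on the plus strand (GRCm38.p6), at the earlier of the gene's RefSeq starts, and capitals mark matches to the p53 decamer, the short sequence of which p53 binds a pair.
Cdkn1a: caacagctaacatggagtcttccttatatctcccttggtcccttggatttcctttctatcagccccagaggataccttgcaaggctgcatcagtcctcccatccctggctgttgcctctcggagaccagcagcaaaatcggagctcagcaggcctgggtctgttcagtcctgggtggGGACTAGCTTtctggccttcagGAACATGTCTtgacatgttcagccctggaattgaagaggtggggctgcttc
The window held 2 matches, at -73 to -64 and at -51 to -42 from the start, and 7.13% of all windows held at least 1. The window at the gene's later start held none, nor did that of Cdkn1b, which also rose with age in KO and in control. A match is a description of the letters and not of binding. Any link between these letters and the rise with age was not tested.

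Cdkn1b (ENSMUSG00000003031, chromosome 6, 134920401 to 134925513, plus strand), the p27 gene, was lower in KO at both ages. Its level was 20.3 and 21.7 CPM in KO at 1w, against 26.5 and 28.3 CPM in control, and 25.8 and 27.8 CPM in KO at 3w, against 39.5 and 40.8 CPM in control. No KO library reached a control library of the same age. The log2 fold change was -0.39 ± 0.061 at 1w (adjusted p = 2.4e-07), and at 3w it was -0.58 ± 0.057 (adjusted p = 2.7e-13). The direction was the same at both ages, while that of the Y-linked transcripts was not. At each age the KO effect and a difference that follows those transcripts still cannot be told apart. Cdkn1b was the 1 gene of the 10 called lower at both ages, and 9.87% of all genes were.

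The INK4 inhibitor Cdkn2c (ENSMUSG00000028551, chromosome 4, 109660876 to 109667189, minus strand) was measured at 14.9 and 15.7 CPM in KO at 1w, against 14.0 and 14.3 CPM in control. The 1w groups were close, and the log2 value of 0.11 ± 0.076 was not called (adjusted p = 0.25). At 3w it had 7.34 and 7.53 CPM in KO, against 9.37 and 9.68 CPM in control. Both KO libraries lay below both control libraries, at -0.35 ± 0.096 (adjusted p = 0.0017). Of 5 other CDK inhibitor genes listed, 3 could be tested. Cdkn2d, another INK4 gene, was 0.23 ± 0.081 higher in KO at 1w (adjusted p = 0.017) and lower at 3w, at -0.45 ± 0.090 (adjusted p = 2.2e-05), while Cdkn1c, the p57 gene, was 0.31 ± 0.12 higher at 3w (adjusted p = 0.022).

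Meis1 (ENSMUSG00000020160, chromosome 11, 18879817 to 19018985, minus strand) stood at 16.6 and 17.2 CPM in KO at 1w, against 22.1 and 22.6 CPM in control. At 3w it had 24.0 and 22.9 CPM in KO, against 21.2 and 20.8 CPM in control. KO at 1w was the low group, and the other 3 groups lay between 20.8 and 24.0 CPM. The log2 fold change of -0.41 ± 0.065 at 1w was called (adjusted p = 4.2e-07). The value of 0.16 ± 0.065 at 3w was called (adjusted p = 0.039) but lost with DESeq2 (0.22), with RLE size factors (0.055), with no low-count filter (0.10) and in 6 of 8 fits that left out 1 library: without control replicate 1 (0.095) or 2 (0.19) at 3w, KO replicate 1 (0.32) or 2 (0.080) at 3w, or KO replicate 1 (0.057) or 2 (0.056) at 1w. Like Ccnd2 and Cdk6, Meis1 was lower at each age in the group with Y-linked transcripts. The related gene Meis3 was 1.62 ± 0.22 higher in KO at 3w (adjusted p = 4e-09), at 2.90 ± 0.30 CPM in KO and 0.959 ± 0.14 CPM in control.

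The retinoblastoma gene Rb1 (ENSMUSG00000022105, chromosome 14, 73183673 to 73325822, minus strand), whose protein is the substrate of the cyclin D kinases, had the largest SE of the 10 at both ages, with 132 to 304 counts per library. It had 6.49 and 7.70 CPM in KO at 1w, against 5.54 and 7.13 CPM in control, and 8.51 and 8.75 CPM in KO at 3w, against 7.25 and 6.93 CPM in control. The groups overlapped at 1w, where the log2 value of 0.13 ± 0.11 was not called (adjusted p = 0.38). At 3w KO lay above control, and 0.28 ± 0.11 was called (adjusted p = 0.026). That call was lost with DESeq2 (0.19) and without control replicate 1 (0.067) or 2 (0.14) or KO replicate 1 (0.095) or 2 (0.16) at 3w. Rcbtb2, which covers 488 bases (8.11%) of the Rb1 exons from the other strand, stood at -0.07 ± 0.088 in KO at 3w (adjusted p = 0.52).

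Set side by side, 3 of the 10 genes (Ccnd2, Cdk6 and Meis1) were called lower in KO at 1w and higher at 3w, a course that 3.09% of all genes took. None took the opposite course, which 3.15% of all genes took, and 2 (Ccnd1 and Cdkn1a) were called higher at both ages, as were 10.8% of all genes. Of these calls, that of Meis1 at 3w and that of Cdkn1a at 1w were lost in several alternatives, as given above. The change of the KO effect itself, 3w less 1w, was called for 7 of the 10 genes, 6 higher and 1 lower, where 35.6% of all genes were called (17.6% higher, 17.9% lower). The largest values were 1.48 ± 0.050 for Ccnd2 (adjusted p = 2.9e-34), 1.26 ± 0.11 for Ccnd1 (adjusted p = 1e-14) and 1.03 ± 0.093 for Cdk6 (adjusted p = 1.8e-14). The KO effects on Cdkn1a, Cdkn1b and Rb1 were not shown to differ between the ages, at 0.05 (adjusted p = 0.54), -0.19 ± 0.084 (0.071) and 0.15 (0.47). With the replicate number, which carries the labelled injection day, as a block within each age, the Cdkn1b difference was called, at -0.20 ± 0.083 (adjusted p = 0.049), as it was with no low-count filter (0.030) and without control replicate 2 at 1w (0.037). These differences follow the same split of the groups as the Y-linked transcripts, and the 2 cannot be told apart. The genes were chosen with earlier results of these data known, so their counts beside the shares of all genes carry no test.

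The mean KO effect over both ages gives the ages equal weight. Differences running in opposite directions at 1w and 3w, such as those of the Y-linked genes, then offset each other only as far as they are of equal size. Averaged this way, Ccnd1 was higher in KO at 1.00 ± 0.055 (adjusted p = 4.9e-24), a fold of 1.99, and Cdkn1b was lower at -0.48 ± 0.042 (adjusted p = 1.3e-15). In all, 5 genes were called higher and 2 lower and 3 were not called, beside 52.8% of all genes called (27.5% higher, 25.3% lower). Cdk6 (0.27 ± 0.046), Ccnd3 (0.17 ± 0.038), Cdkn1a (0.16 ± 0.029) and Rb1 (0.20 ± 0.077) were the others called higher, and Meis1 (-0.13 ± 0.046) the other called lower. Ccnd2 averaged 0.03 ± 0.025 (adjusted p = 0.37) and Cdk4 -0.01 ± 0.037 (adjusted p = 0.91), neither of them called. In a fit of additive age and KO terms, in which changes of the KO effect with age count as spread, 3 genes remained called instead of 7, and Ccnd3 (adjusted p = 0.12), Cdk6 (0.42), Meis1 (0.41) and Rb1 (0.13) were lost. The Meis1 call in the mean was also lost with DESeq2 (0.087), with upper-quartile scaling (0.068), without control replicate 2 at 1w (0.061) and without KO replicate 1 at 1w (0.076). That of Rb1 was lost with DESeq2 (0.15) and without control replicate 1 (0.17) or KO replicate 2 (0.17) at 1w, or without control replicate 2 (0.092) or KO replicate 1 (0.067) or 2 (0.10) at 3w.

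Between 1w and 3w Ccnd1, Ccnd3, Cdk4, Cdk6 and Cdkn2c fell and the p21 and p27 genes rose, both in KO and in control. Ccnd2 fell in control and was not called in KO. In KO, 4 genes were called higher and 5 lower at 3w than at 1w, beside 67.9% of all genes called (33.2% higher, 34.6% lower). In control, 2 were called higher and 6 lower, beside 70.8% of all genes (34.9% higher, 36.0% lower). The median log2 change with age was -0.32 in KO and -0.76 in control, while that of all genes was -0.02 in KO and -0.03 in control. Cdkn1a rose by 1.32 ± 0.040 in KO (adjusted p = 4.7e-38) and by 1.27 ± 0.042 in control, the largest rise of the 10 genes in each. Cdkn1b rose by 0.35 ± 0.061 in KO and by 0.54 ± 0.057 in control.

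Among the genes that fell with age, Ccnd1 changed by -1.23 ± 0.065 in KO and by -2.49 ± 0.083 in control, Cdk6 by -0.81 ± 0.062 in KO and by -1.84 ± 0.066 in control, and Ccnd3 by -0.58 ± 0.053 in KO and by -0.94 ± 0.055 in control. Cdk4 changed by -0.92 ± 0.052 in KO and by -1.17 ± 0.052 in control. The fall was smaller in KO for all 4, which restates the called differences of the KO effect given above. Ccnd2 had -0.07 ± 0.035 in KO, which was not called (adjusted p = 0.084), against -1.55 ± 0.036 in control. The KO value of Ccnd2 was called with upper-quartile scaling (adjusted p = 0.042), with no low-count filter (0.014) and with a minimum count of 50 (0.034). Cdkn2c went the other way, with a fall of -1.04 ± 0.087 in KO and of -0.58 ± 0.084 in control. Meis1 rose by 0.47 ± 0.065 in KO (adjusted p = 2.9e-09) and was not called in control, at -0.09 ± 0.065 (adjusted p = 0.21), though it was with upper-quartile scaling (-0.15, adjusted p = 0.030). Rb1 had 0.29 ± 0.10 in KO (adjusted p = 0.012), which was lost with DESeq2 (0.10) and without KO replicate 1 at 1w (0.28) or KO replicate 2 at 3w (0.061), and 0.14 ± 0.11 in control (adjusted p = 0.28), called without control replicate 2 at 1w (0.37, adjusted p = 0.027). Y-linked transcripts were absent or nearly so at 3w in KO and at 1w in control. Within KO and within control, age and this difference therefore cannot be told apart. The summed cardiomyocyte markers were 67700 to 68100 CPM at 3w against 38100 to 38500 CPM at 1w in KO, and 82800 to 87400 CPM at 3w against 40100 to 40600 CPM at 1w in control; their part in the changes with age was not tested.

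**Figure D4:**
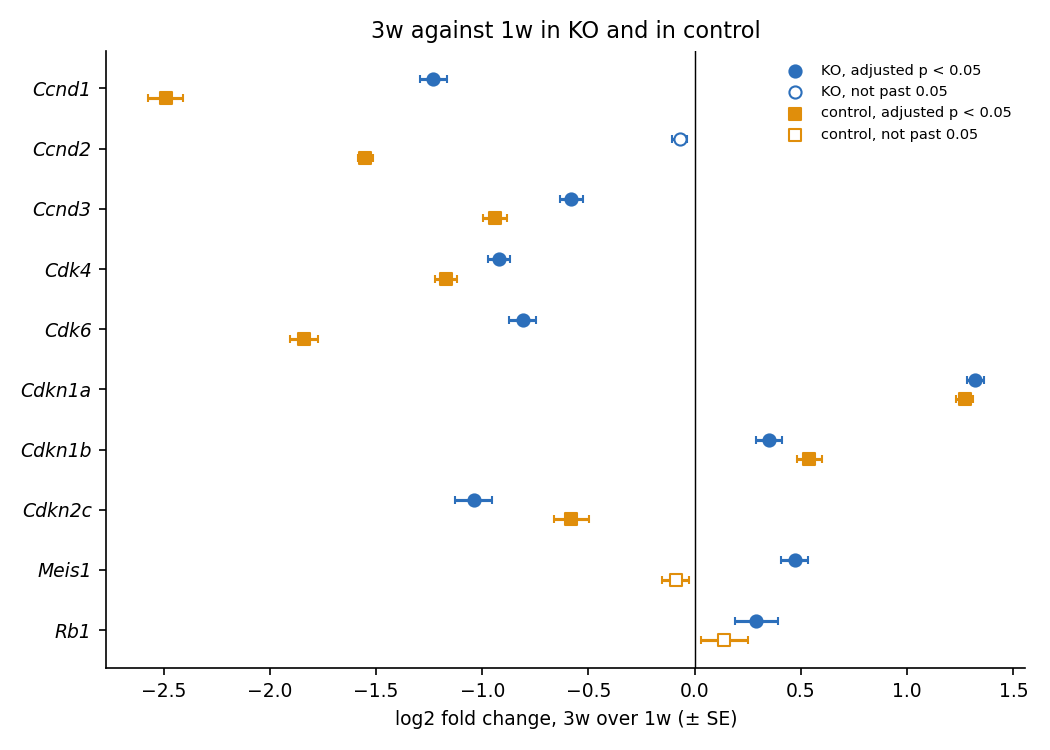
Log2 fold change of 3w over 1w (x axis) for each of the 10 genes in KO (circles) and in control (squares), with bars of ± 1 SE; filled points passed an adjusted p of 0.05. Ccnd2 lies near 0 in KO (-0.07) and at -1.55 in control, and Cdkn1a lies at 1.32 in KO and 1.27 in control.

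Across the 8 libraries, which form only 4 groups and share depth and cell make-up, log2 CPM of Cdk4 ran against that of Cdkn1a (Pearson r = -0.98) and Ccnd3 ran with Cdk6 (r = 0.97). Cdkn2c, though an inhibitor, ran with Cdk4 (r = 0.90) and against Cdkn1a (r = -0.96). Among 6857 genes with a mean of at least 10 CPM, the nearest courses to Ccnd1 were those of Cygb (r = 0.997), Ctnnbip1 and Notch1 (both 0.996). The nearest to Ccnd2 were Tanc1 and Slfn5 (both 0.997), to Cdkn1a Mapt (1.0) and to Cdkn1b Mrpl16 (0.996). For Meis1 the closest were Nr3c2 (0.992) and Mef2d (0.984), and for Rb1 no gene came nearer than Phf20 (0.936). These values are descriptions of 4 groups and carry no test.

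The lists of related genes are read against the share of all genes called, which was 23.0% higher and 20.0% lower at 1w and 24.4% higher and 24.8% lower at 3w. Of 15 other cyclins, kinases and their activators, 8 were called higher and 1 lower in KO at 1w (median log2 fold change 0.27) and 4 higher and 0 lower at 3w (median 0.40), the 4 being near the share of all genes. At 1w Cdc25b, a phosphatase that activates CDKs, was 0.67 ± 0.11 higher (adjusted p = 4.8e-07), with 9.57 ± 0.76 CPM in KO and 5.99 ± 0.037 CPM in control. Cdk1, the kinase of mitosis, was 1.00 ± 0.28 higher at 3w (adjusted p = 0.0023), at 1.09 ± 0.059 CPM in KO and 0.528 ± 0.097 CPM in control, and Ccnb1, its cyclin, was 1.99 ± 0.59 higher (adjusted p = 0.0036) on 20 counts in KO and 6 in control. Cdk2 was not called at 1w (-0.01 ± 0.067, adjusted p = 0.93) or at 3w (-0.10 ± 0.090, adjusted p = 0.35).

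Downstream of Rb1, 5 of 17 other pocket protein, E2F and DREAM genes were called higher and 1 lower at 1w, and 3 were called higher and 2 lower at 3w, the counts called higher being near the shares of all genes given above. E2f1, the leading activator E2F, was 2.29 ± 0.30 higher in KO at 3w (adjusted p = 1.4e-09), at 1.54 ± 0.014 CPM in KO and 0.308 ± 0.036 CPM in control, and was not called at 1w (0.16 ± 0.083, adjusted p = 0.11). Mybl2, a mitotic partner of the DREAM core, was 1.11 ± 0.19 higher at 1w (adjusted p = 1.3e-06), while the E2F partner Tfdp2 was lower at both ages, at -0.45 ± 0.051 at 1w and -0.66 ± 0.038 at 3w (adjusted p = 1.9e-23 at 3w). Of 17 tested E2F targets of S phase, 10 were higher and 0 lower at 1w, but 5 were higher and 4 lower at 3w, where Mcm3, a subunit of the replicative helicase, was 1.03 ± 0.16 higher and Uhrf1, which recruits the maintenance DNA methyltransferase, lower at -0.55 ± 0.14. Of 17 tested genes of mitosis, 16 were higher and 0 lower at 1w (median 0.47), and 9 were higher and 0 lower at 3w (median 0.60). Many of these genes had few counts at 3w, among them Anln (68 in KO and 33 in control) and Bub1 (32 in KO and 12 in control). The medians of the 2 ages are therefore not compared. With age, all 17 fell, by a median of -4.15 in KO and -4.24 in control. Of all genes, 34.6% were lower with age in KO and 36.0% in control.

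Upstream, Myc, a transcription factor known to act on Ccnd2 and Cdk4, was 0.98 ± 0.13 higher in KO at 1w (adjusted p = 2.6e-09). Its levels at 1w were 6.49 ± 0.38 CPM in KO and 3.31 ± 0.075 CPM in control. It was not called at 3w (0.12 ± 0.14, adjusted p = 0.53). Ccnd2 and Cdk4 were both lower in KO at 1w, as given above, and any link with Myc was not tested. Skp2, the ubiquitin ligase subunit that marks p27 for breakdown, was 0.87 ± 0.20 higher at 1w (adjusted p = 0.00033). At 3w Skp2 was low, at 0.562 ± 0.10 CPM in KO (32 counts) and 0.42 ± 0.055 CPM in control (29 counts). Foxo3, a forkhead factor that activates Cdkn1b, was lower at both ages, at -0.29 ± 0.048 at 1w (adjusted p = 8.8e-07), and at 3w it was -0.66 ± 0.036 (adjusted p = 2.8e-24), where it had 134 ± 0.78 CPM in KO and 211 ± 5.0 CPM in control. Of the 10 tested genes of this list, 3 were higher and 3 lower at each age, beside 23.0% and 20.0% of all genes at 1w and 24.4% and 24.8% at 3w. Among 18 genes of the p53 pathway, 7 were higher and 3 lower at 1w, and 9 higher and 6 lower at 3w. Phlda3 was 2.13 ± 0.12 higher at 3w (adjusted p = 3.8e-24), whereas Sesn1, another p53 target, was lower at -0.97 ± 0.035 (adjusted p = 3.2e-33). Of 16 immediate early genes, 10 were higher and 3 lower at 1w, and 6 were higher and 6 lower at 3w. Egr1 was 2.17 ± 0.043 higher at 1w (adjusted p = 4.3e-47), with 152 ± 0.056 CPM in KO and 33.4 ± 2.6 CPM in control, but lower in KO at 3w, at -0.38 ± 0.038 (adjusted p = 3.3e-13). Of 10 macrophage and myeloid markers, all 10 were higher in KO at both ages, with a summed level of 135 to 139 CPM in KO against 42.2 to 42.6 CPM in control at 1w and of 114 to 117 CPM in KO against 71.2 to 72.4 CPM in control at 3w; the part of such cells in these lists was not tested.

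**Figure D5:**
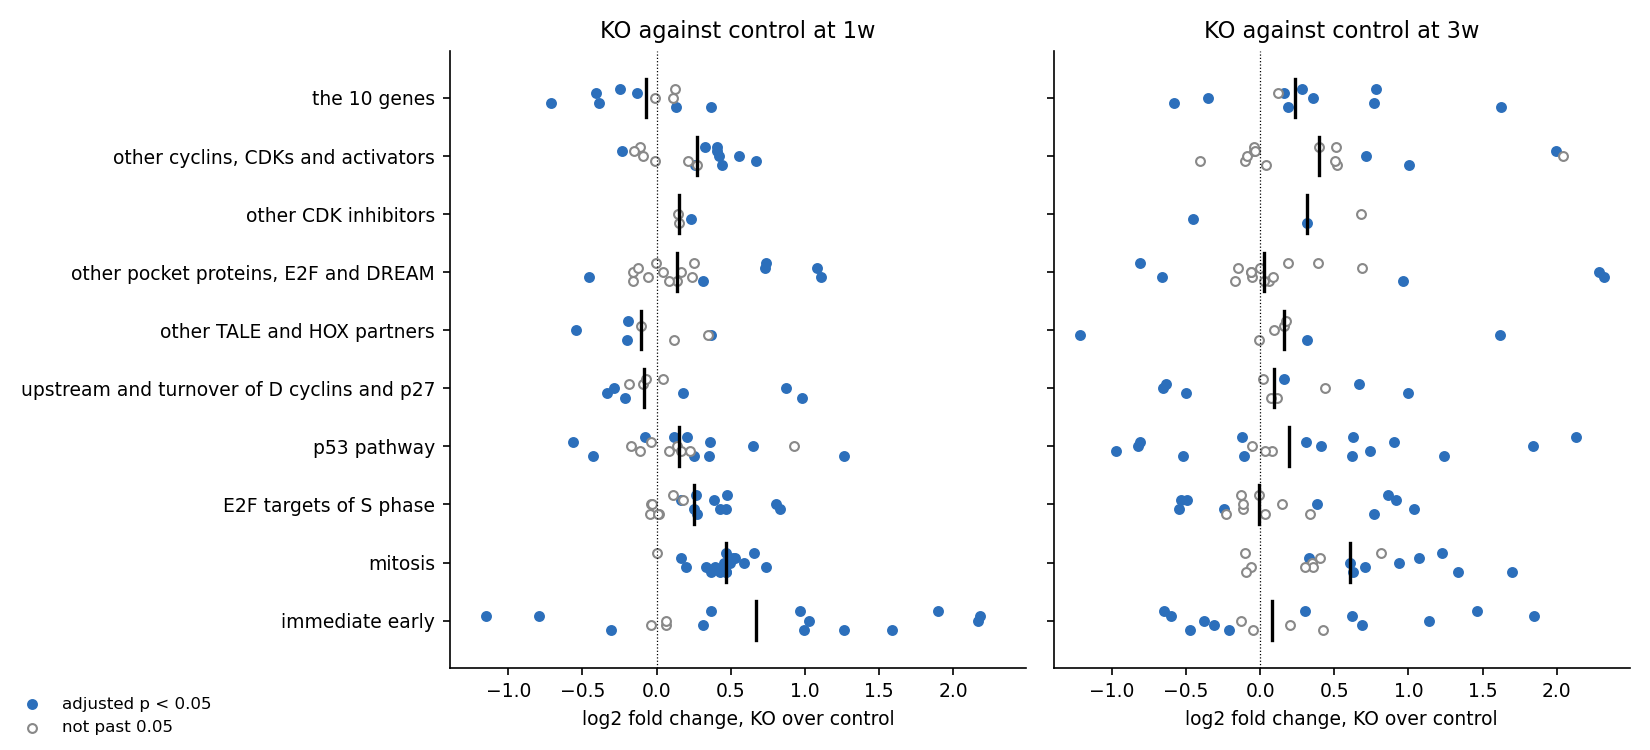
Log2 fold change of KO over control (x axis) at 1w and at 3w for the 10 genes and for 9 lists of related genes (rows); each point is 1 gene tested, filled where the adjusted p was under 0.05, and black bars are list medians. The mitosis list has medians of 0.47 at 1w and 0.60 at 3w, and the 10 genes of -0.07 and 0.23.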

How the data were processed

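The deposited table holds whole-number gene counts, and the authors' processing, per the submitters' processing notes, used FastQC, MultiQC, HISAT2, featureCounts, DESeq2 and the build mm10. For versions, annotation and strand setting, the sources used here give nothing. SMART and Nextera XT kits made the libraries, per the labels' protocols. GENCODE M21 named 54723 of the 54752 IDs.

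What follows was computed here. Genes passed edgeR's filterByExpr (minimum count 10, minimum total 15), and CPM use TMM factors of 0.759 to 1.23. Tests were by edgeR's quasi-likelihood method with robust dispersion, in 1 model of 4 groups of 2 (4 residual degrees of freedom), with Benjamini-Hochberg adjustment over all 14665 genes and calls at an adjusted p under 0.05. Each SE comes from the F statistic. The libraries of a group differed by more than sampling noise (chi-square per gene 1.45 to 6.4) and were kept apart. Equal replicate numbers in KO and control share a labelled injection day, but their deviations from the group means correlated at only -0.02 at both ages; a fit with the number as a block was run beside the main one. The members and gene lists were chosen with earlier results of these data known. All 10 members are described. Of each list, up to 2 called genes in each direction with the largest changes qualified to be named, and of these a selection is given. Cdk2 and the values of E2f1, Myc, Skp2 and Egr1 at the other age were chosen after their values were seen. Correlations were taken on log2 CPM (prior count 2). Promoter windows are RefSeq's. The procedure was also run on simulated counts, drawn with the spread estimated from these libraries and with few genes changed. Such counts cannot show the error rates if the libraries of a group are not different animals. Alternatives were other scalings, filters, DESeq2, a replicate block, an additive fit, a fold limit and leaving out each library. The software was R 4.3.3, edgeR 4.0.16, limma 3.58.1 and DESeq2 1.42.0.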

Additional observations from a re-analysis of the deposited data

Results flagged for a closer look

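For 7 of the 10 genes the KO effect differed between 3w and 1w in a test of the difference itself (edgeR's quasi-likelihood test, adjusted over all genes, of which 35.6% were called). The difference of the log2 KO effects, 3w less 1w, was 1.48 for Ccnd2, 1.26 for Ccnd1, 1.03 for Cdk6, 0.56 for Meis1, 0.36 for Ccnd3 and 0.25 for Cdk4, and -0.46 for Cdkn2c. The Cdk4 value was the least firm: its adjusted p was 0.0062 with all libraries, 0.062 with DESeq2, 0.058 without control replicate 2 at 3w, 0.054 without KO replicate 2 at 1w and 0.075 without KO replicate 1 at 3w. The presence of Y-linked transcripts changed in the same way between the groups, so that these differences and a difference that follows those transcripts cannot be told apart.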

How the results depend on the processing

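Of 47 called changes of the 10 genes, 37 kept their call and direction in every alternative that refitted the model or left out a library (the fold limit, below, aside); the 10 that did not belonged to Cdk4, Cdkn1a, Meis1, Rb1, Ccnd3 and Cdk6, and the adjusted p-values stand beside them in the results or above. Leaving out 1 library gave 5 to 7 genes called at 1w, 7 to 9 at 3w, 6 to 7 in the mean, 8 to 9 with age in KO and in control, and 6 to 8 in the difference. Of 910 recomputed values, 844 kept their direction and side of the threshold and 12 changed sign, all of them near 0 and not called. For Ccnd3 in KO at 1w these were 0.02 with no low-count filter, 0.00 with a minimum count of 50, 0.07 without control replicate 2 at 1w and 0.01 without KO replicate 1 at 1w, in a leave-one-out range of -0.07 to 0.07. For Cdk4 in the mean of ages they were 0.02 with upper-quartile scaling, 0.01 with a minimum count of 50, 0.02 without control replicate 1 at 3w and 0.01 without KO replicate 2 at 1w, in a leave-one-out range of -0.06 to 0.02. Ccnd2 in the mean was -0.01 without KO replicate 2 at 3w (range to 0.04). Rb1 was -0.02 in KO at 1w (range to 0.35) and -0.00 with age in control (range to 0.37), both without control replicate 1 at 1w, and -0.08 in the difference without control replicate 2 at 1w (range to 0.29). With a fold of at least 1.5 also required, the genes called were 1 at 1w (7 without it), 3 at 3w (9), 1 in the mean (7), 5 with age in KO (9) and 3 in the difference (7). The additive fit called 3 in the mean. How many of all genes pass the fold limit or the additive fit was not counted. These drops are therefore not read as particular to the 10 genes. DESeq2 called 4043 of all genes at 1w, against 6305, and 3351 in the difference, against 5215. With the replicate number as a block within each age, 1 call of the 10 genes changed: Cdkn1b in the difference, at -0.20 (adjusted p = 0.049). No scaling moved the median of all genes by over 0.1. The causes of these changes were not tested. Rb1, with 132 to 304 counts per library, had the largest SE; the part of depth in it was not tested.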
